A study of Mus musculus with 8 samples.

Results

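Polycomb repressive complex 2 (PRC2) is the enzyme that methylates lysine 27 of histone H3, and the genes described here are 10 that encode mouse subunits of it: the catalytic Ezh2 and Ezh1, the core subunits Eed and Suz12, the histone-binding Rbbp4 and Rbbp7, and the accessory subunits Jarid2, Mtf2, Phf1 and Phf19. They were chosen by name, as 10 of 21887 protein-coding genes. No measured value entered the rule, but earlier results of these data were known when they were chosen. The question was where the zinc finger transcription factor ZFP281 was bound at these genes. ZFP281 was immunoprecipitated from spheres of primary tumours (PT; animals over 20 weeks of age with a tumour) and of early lesions (EL; animals aged 14 to 18 weeks in which no tumour could be felt), with 3 libraries and 1 input per group. All animals carried MMTV-HER2/Neu on the FvB background, a transgene in which the promoter of the mouse mammary tumour virus drives the HER2/Neu oncogene mainly in mammary epithelium. Digested tumours or mammary glands were grown for 7 days in mammosphere medium on low-adhesion plates, so the cells were those that survive in suspension. The tissue label reads breast tumor for PT and mammary lung for EL, and both are labelled as breast cancer cells. Positions of binding hold no expression, so the labels could not be checked against marker genes. The labels call the libraries biological replicates without naming animals, so p-values measure the spread between these samples, which may be technical.

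PRC2 places a repressive mark on the chromatin of developmental genes and is known for holding them silent in stem and differentiated cells. EZH2 or EZH1 carries the catalytic SET domain and works only together with EED and SUZ12. RBBP4 and RBBP7 are also subunits of other chromatin complexes, the deacetylase complex NuRD among them. JARID2 and the Polycomb-like proteins MTF2, PHF1 and PHF19 define alternative forms of the complex and help to bring it to its sites. In the mammary gland EZH2 is known from progenitor cells and from breast cancer.

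The data are 1 list of binding summits per ZFP281 library, each a position of 1 bp with the authors' score, which was taken to be the −log10 of a q-value. A summit was within reach of a gene when it lay in the gene or at most 20 kb from either end. The lists held 2897, 4030 and 6033 summits in PT replicates 1, 2 and 3 and 8588, 15770 and 7055 in EL replicates 1, 2 and 3. Read depth is unknown, so summit numbers are given in full lists and at equal list length. Percentiles are compared at equal list length, and for some genes also in full lists. Shared regions are counted in full lists only. Equal length means that every list was reduced to its 2897 best scores, the length of the shortest list. The lowest score kept was 1.42, 6.61 and 8.74 in PT replicates 1, 2 and 3. It was 12.52, 23.3 and 10.28 in EL replicates 1, 2 and 3, so equal length is not an equal score cut-off. Where a summit ranks in its list is given as a score percentile, in which 100 is the strongest summit.

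ZFP281 summits lay at most PRC2 genes in both kinds of sphere. In full lists, 6, 6 and 7 of the 10 genes had a summit within reach in PT replicates 1, 2 and 3, against 9, 9 and 7 in EL replicates 1, 2 and 3. The means were 6.33 ± 0.577 genes in PT and 8.33 ± 1.15 in EL (SD, n = 3 each), and the groups overlapped at 7 genes. At equal list length the numbers were 6, 5 and 6 in PT, against 6, 6 and 5 in EL, with a mean of 5.67 ± 0.577 in either group (SD, n = 3 each). The lower number of PT in full lists was thus not seen once the lists had the same length. Among all protein-coding genes, 16.7%, 16.9% and 16.9% were within reach of a summit in the PT lists of equal length and 16.9%, 17.6% and 17.2% in those of EL.

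Ezh2, Eed, Suz12, Jarid2, Rbbp4 and Phf1 had a summit within reach in all 6 full lists, 6 of 10 genes against 13.0% of all protein-coding genes. In the shortened lists 5 of the 10 had one in all 6 libraries, against 8.76% of all, and Eed was the gene that dropped out. Phf19 had none in any library, as did 48.6% of all protein-coding genes. In the shortened lists 4 of the 10 had none (Ezh1, Mtf2, Phf19 and Rbbp7), against 72.1% of all. The median PRC2 gene had summits in 6 full lists and the median of all genes in 1, and at equal list length the medians were 5 and 0. The PRC2 genes are longer, with a median of 31810 bp against 17169 bp over all protein-coding genes, and a longer gene has a longer reach. The part of gene length in these shares was not tested.

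Windows of 1 size around start sites gave a similar picture. Within 1 kb of a RefSeq start site, 5, 5 and 6 of the 10 genes had a summit in the full lists of PT replicates 1, 2 and 3 and 6, 7 and 6 in those of EL. The share among the 17492 protein-coding genes with a listed start site was 6.23%, 8.07% and 11.9% in PT and 14.3%, 21.7% and 12.3% in EL. Among the 2897 best scores, Ezh2, Suz12, Jarid2 and Rbbp4 had a start-site summit in all 6 libraries, 4 of 10 genes against 3.54% of those with a start site. In the 500 strongest summits of each list, 2, 2 and 2 PRC2 genes had a start-site summit in the PT libraries and 2, 1 and 0 in the EL libraries, against 1.39% to 1.60% and 1.53% to 1.63% of all genes. Of the 63 summits within reach of the 10 genes, 38 lay within 1 kb of a start site, and 19 lay nearer to another gene than to the PRC2 gene.

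**Figure D1:**
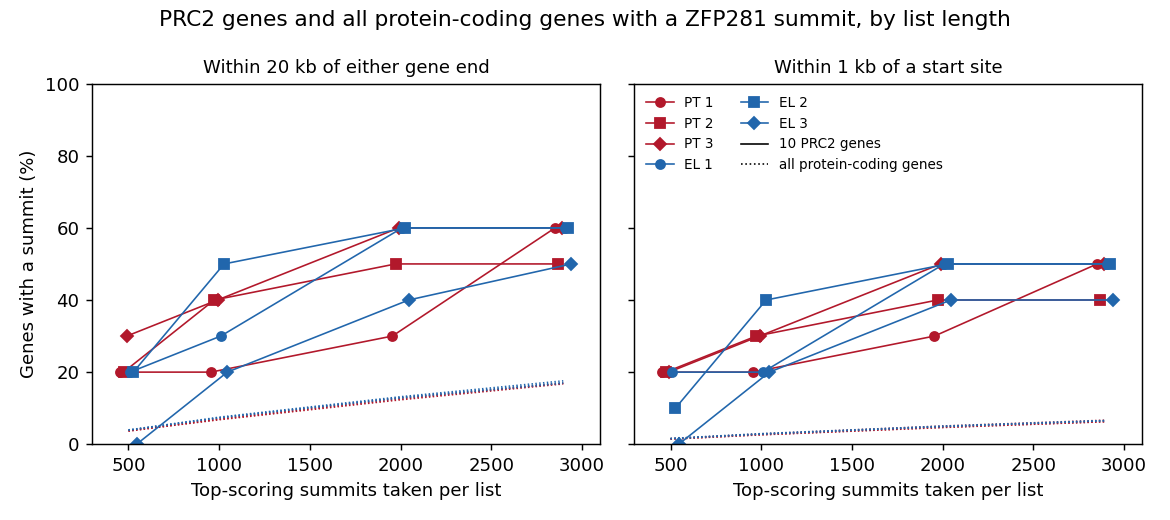
Share of genes with a ZFP281 summit (vertical axis, percent) against the number of top-scoring summits taken per list (horizontal axis), within 20 kb of either gene end on the left and within 1 kb of a start site on the right. Solid lines with markers are the 10 PRC2 genes in each library, set slightly apart sideways so that they can be told apart, and dotted lines are all protein-coding genes, with PT in red and EL in blue. With 2897 summits per list, 5 or 6 of the 10 genes had a summit within 20 kb in every library, and PT and EL lines cross.

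Ezh2, which encodes the main catalytic subunit in dividing cells, had exactly 1 summit within reach in each library, upstream of its start site. The region covered 131 bp at chr6:47595314-47595444 (mm10, gene on the minus strand), 284 to 414 bp upstream of the start site. The gene is listed as reaching beyond that start site, to chr6:47595270, and the summits lay 44 to 174 bp from this end. The summits lay 414, 392 and 284 bp upstream in PT replicates 1, 2 and 3 and 398, 395 and 380 bp upstream in EL replicates 1, 2 and 3. The score percentile at equal list length was 22.3, 58.5 and 56.2 in PT, against 33.8, 70.7 and 64.9 in EL. PT averaged 45.7 ± 20.3 and EL 56.5 ± 19.9 (SD, n = 3 each), a difference of -10.8 percentile points. The groups overlapped, since EL replicate 1 lay below PT replicates 2 and 3, and the exact permutation p was 0.5 (two-sided, adjusted p = 1 over all protein-coding genes). With 1 library left out the difference ran from -22.2 without EL replicate 1, when the groups did not overlap, to 0.866 without PT replicate 1, when its sign turned.

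Ezh1, the paralogue with a catalytic SET domain that is known from non-dividing cells, had no summit within 1 kb of its start site. Within reach lay 0, 0 and 0 summits in PT and 3, 3 and 0 in EL replicates 1, 2 and 3. Only 1 of the 6 was nearest to Ezh1 itself, 5172 bp upstream of the start site in EL replicate 1, at the 12.2 percentile of that list. The strongest, in EL replicates 1 and 2 at chr11:101190140-101190159, lay inside Cntnap1, at most 975 bp beyond the end of Ezh1, at the 62.8 and 77.7 percentiles of their full lists. The shortened lists held no summit of Ezh1 in any library. Mean numbers in full lists were 0 in PT and 2.0 ± 1.73 in EL (SD, n = 3 each; exact permutation p = 0.4, two-sided, adjusted p = 1). Without EL replicate 3 the EL libraries held 3 summits each and the groups did not overlap.

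Suz12, the subunit that holds the complex together, had 1 summit per library just inside the gene, and at equal list length it ranked higher in every PT library. The region covered 109 bp at chr11:79993254-79993362 (plus strand), 148 to 256 bp downstream of the start site. Its percentile at equal list length was 89.8, 92.6 and 91.1 in PT replicates 1, 2 and 3, against 84.2, 80.7 and 63.6 in EL replicates 1, 2 and 3. Every PT value lay above every EL value, and the summits ranked 296, 216 and 259 in the PT lists against 458, 560 and 1053 in the EL lists. The means were 91.1 ± 1.4 in PT and 76.2 ± 11.0 in EL (SD, n = 3 each), a difference of 15.0 points with an exact permutation p of 0.1 (two-sided), the smallest that 3 against 3 libraries allow, and an adjusted p of 1. The difference was 8.68 without EL replicate 3 and 14.3 to 19.0 without any other library, with no overlap of the groups in any of these. Suz12 was the only one of the 10 genes with this order, against 3.25% of all protein-coding genes. Among genes with a summit in all 6 lists of equal length it was 1 of 5 PRC2 genes, against 12.2% of the 1917 such genes. Within 1 kb of a start site it was likewise 1 of 10 genes, against 0.858%, and the opposite order was seen at none, against 1.19%. Of the 17492 genes behind these 2 shares, 13380 had no start-site summit in any full list and could not be called. As percentiles of the full lists the groups overlapped, at 89.8, 94.7 and 95.7 in PT and 94.7, 96.5 and 85.0 in EL.

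Eed, whose protein binds trimethylated lysine 27 and stimulates the enzyme, had 1 summit per library inside the gene, at 2 positions. These are the positions left when summits within 200 bp of each other are merged. A merging distance of 500 bp joins them into 1, so their number depends on this setting. On the minus strand from the start site, the summits lay 381, 425 and 691 bp downstream in PT replicates 1, 2 and 3 and 646, 420 and 670 bp downstream in EL replicates 1, 2 and 3. The position nearer to the start, chr7:89980551-89980595, was that of PT replicates 1 and 2 and EL replicate 2, and the further one, chr7:89980285-89980330, that of PT replicate 3 and EL replicates 1 and 3. The positions therefore did not divide by group. The percentile at equal list length was 2.0 in PT replicate 1 and 45.0 in PT replicate 3, against 35.8 and 39.1 in EL replicates 1 and 2, with no summit in PT replicate 2 and EL replicate 3. With a library at no summit in each group, the values overlapped (15.6 ± 25.4 in PT and 25.0 ± 21.7 in EL, SD, n = 3 each; exact permutation p = 1, two-sided). The 3.0 score of PT replicate 1 was low even for its list, in which it ranked 2844 of 2897.

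Rbbp4, which encodes a WD40 protein that binds histones, had a summit in all 6 libraries in the gap of 162 bp that separates it from Zbtb8os. The promoter is printed because all 6 summits lie within it (RefSeq, GRCm38.p6, chr4:129335321-129335620, minus strand, 250 bases before to 50 after the start site). No letters are in capitals, since the G-rich motif searched below is not in this window.
Rbbp4: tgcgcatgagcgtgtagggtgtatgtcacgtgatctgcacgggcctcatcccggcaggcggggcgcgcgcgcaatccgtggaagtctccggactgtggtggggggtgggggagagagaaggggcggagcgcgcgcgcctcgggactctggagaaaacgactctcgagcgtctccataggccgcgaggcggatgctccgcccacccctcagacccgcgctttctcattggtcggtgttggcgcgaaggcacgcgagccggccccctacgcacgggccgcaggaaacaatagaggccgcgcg
Counted from base 1 of this sequence, the summits fell at bases 128, 210 and 219 in PT replicates 1, 2 and 3 and at bases 152, 198 and 216 in EL replicates 1, 2 and 3. The summits of PT replicate 1 and EL replicate 1 were nearer to the boundary of Zbtb8os than to that of Rbbp4. The percentile at equal list length was 46.7, 70.0 and 80.7 in PT, against 57.3, 74.1 and 79.3 in EL, with means of 65.8 ± 17.4 and 70.2 ± 11.5 (SD, n = 3 each). The groups overlapped (exact permutation p = 0.7, two-sided, adjusted p = 1). A further summit of EL replicate 2, 19904 bp from the gene, was nearest to Sync.

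Rbbp7, the X-linked paralogue of Rbbp4, had summits mainly in the EL libraries, none of them among the 2897 best scores. In full lists it had 0, 0 and 1 summits in PT replicates 1, 2 and 3 and 2, 2 and 2 in EL. EL summits lay upstream of the start site (278, 299 and 226 bp in EL replicates 1, 2 and 3) and inside the gene (630, 559 and 767 bp downstream in the same order), and the summit of PT replicate 3 lay 207 bp upstream. The upstream region was chrX:162760073-162760165 and the inner one chrX:162760931-162761139. Every EL number lay above every PT number, 0.333 ± 0.577 in PT and 2.0 ± 0 in EL (SD, n = 3 each; exact permutation p = 0.1, two-sided, adjusted p = 1). The best full-list percentile was 15.2 in PT replicate 3, against 47.2, 73.8 and 43.8 in EL replicates 1, 2 and 3. It was the only one of the 10 genes whose full-list percentile was higher in every EL library, against 15.9% of all protein-coding genes, and none was higher in every PT library, against 0.959%. Among the 2897 best scores no library had a summit within reach, so the difference was made by summits at rank 4059 and further down, beyond the 2897 taken from each list. PT replicate 1 held no summit of such a rank and PT replicate 2 ended at 4030. PT replicate 3 went on to 6033 and held only the upstream region. The inner EL summits scored 8.4, 17.4 and 7.6 in replicates 1, 2 and 3. The PT lists went down to scores of 1.42, 1.55 and 1.42. With a score of at least 5 the PT minus EL difference was -2.0 summits, and with at least 10 it was -0.333. The part of list length in this difference was not tested.

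The Rbbp7 promoter is shown because it was the window of highest GC content among the 10 genes (75.7%), with 2 of its 7 summits inside (RefSeq, GRCm38.p6, chrX:162760122-162760421, plus strand).
Rbbp7: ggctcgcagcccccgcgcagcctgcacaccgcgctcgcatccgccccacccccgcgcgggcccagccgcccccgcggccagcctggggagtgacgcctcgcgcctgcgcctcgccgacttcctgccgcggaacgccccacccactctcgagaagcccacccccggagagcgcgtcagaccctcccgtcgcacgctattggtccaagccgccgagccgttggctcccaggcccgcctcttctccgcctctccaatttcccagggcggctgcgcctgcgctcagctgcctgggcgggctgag
The summit of PT replicate 3 fell at base 44 and that of EL replicate 3 at base 25. The motif is not in this window.

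**Figure D2:**
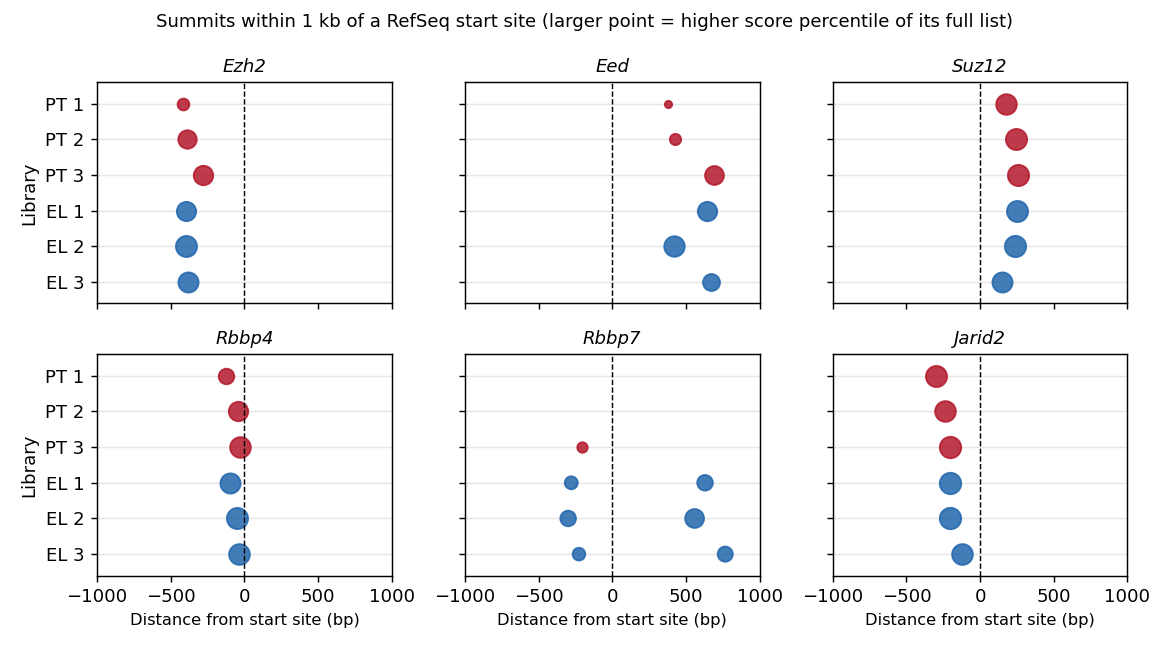
Summits within 1 kb of the start site of 6 PRC2 genes, with distance in bp on the horizontal axis (negative is upstream, the dashed line is the start site) and PT libraries above EL libraries. Point size grows with the score percentile in the full list. With summits within 200 bp of each other merged, Ezh2, Suz12, Rbbp4 and Jarid2 have 1 position in all 6 libraries. Eed then has 2 positions that both groups use, which a merging distance of 500 bp joins into 1. Rbbp7 has points in the 3 EL libraries and in PT replicate 3.

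Jarid2, which encodes a DNA-binding accessory subunit that recruits PRC2 and is itself known as a substrate of the enzyme, had the highest ranked start-site summit of the 10 genes in 4 of 6 libraries. Suz12 ranked above it in PT replicate 2 and Rbbp4 in EL replicate 3. The region covered 177 bp at chr13:44730478-44730654 (plus strand), 120 to 296 bp upstream of the start site. It ranked 165, 370 and 146 in PT replicates 1, 2 and 3 and 200, 348 and 616 in EL replicates 1, 2 and 3. In the shortened lists the percentiles were 94.3, 87.3 and 95.0 in PT, against 93.1, 88.0 and 78.8 in EL. The means of 92.2 ± 4.29 in PT and 86.6 ± 7.29 in EL (SD, n = 3 each) differed by 5.55 points, within the overlap of the groups (exact permutation p = 0.3, two-sided, adjusted p = 1). The difference was 8.02 without PT replicate 2, when the groups did not overlap, and 1.61 without EL replicate 3.

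The Jarid2 promoter is printed because 5 of the 6 start-site summits lie inside it and it holds the motif at 2 places (RefSeq, GRCm38.p6, chr13:44730524-44730823, plus strand). Capitals mark GGGAGGGG, searched on both strands as a core of the G-rich sequence for which ZFP281 is known.
Jarid2: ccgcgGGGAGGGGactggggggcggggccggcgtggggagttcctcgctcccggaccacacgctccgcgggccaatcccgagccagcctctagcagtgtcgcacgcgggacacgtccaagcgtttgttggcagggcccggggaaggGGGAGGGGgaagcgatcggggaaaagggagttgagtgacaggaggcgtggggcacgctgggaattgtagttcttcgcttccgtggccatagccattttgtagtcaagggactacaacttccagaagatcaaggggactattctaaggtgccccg
The motif occupies bases 6 to 13 and 147 to 154. Summits fell at bases 10 and 47 in PT replicates 2 and 3 and at bases 48, 44 and 131 in EL replicates 1, 2 and 3. The summit of PT replicate 1 lay upstream of the window. From the middle of the first match, the nearest summit was 54, 0 and 37 bp away in PT replicates 1, 2 and 3 and 38, 34 and 121 bp away in EL replicates 1, 2 and 3. From the middle of the second match, the distances were 195, 140 and 103 bp in PT and 102, 106 and 19 bp in EL. The summits of the 3 PT libraries and of EL replicates 1 and 2 were thus nearer to the first match, and that of EL replicate 3 to the second.

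A second Jarid2 region separated the groups at equal list length. It lay deep inside the gene at chr13:44840044-44840082, 108.8 kb beyond the nearer of its 2 start sites, and the gene table used gives no exons. Its full-list percentile was 14.9 in PT replicate 2, against 77.7, 85.6 and 68.6 in EL replicates 1, 2 and 3, with no summit in PT replicates 1 and 3. Among the 2897 strongest summits it was present in no PT library and in all 3 EL libraries, at ranks 1898, 2256 and 2198. The gene therefore had 1, 1 and 1 summits in PT and 2, 2 and 2 in EL at equal list length (exact permutation p = 0.1, two-sided, adjusted p = 1). Jarid2 was the only PRC2 gene with more summits in every EL library at this length, 1 of 10 against 2.12% of all protein-coding genes, and none had more in every PT library, against 1.83% of all. At this length 72.1% of all protein-coding genes had no summit in any library and could not be called. Jarid2 is the longest of the 10 genes, at 190870 bp, and the part of gene length in this call was not tested. In full lists the numbers were 1, 2 and 1 in PT and 2, 5 and 2 in EL, which overlap at 2. With 2000 summits per list the groups also overlapped, the difference being -0.333 summits against -1.0 with 2897.

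Mtf2, a Polycomb-like subunit that binds unmethylated CpG-rich DNA, had summits in 2 EL libraries and at different places. EL replicate 1 had a summit 2523 bp upstream and EL replicate 2 a summit 375 bp downstream of the start site, at the 24.9 and 38.5 percentiles of their lists. PT had 0, 0 and 0 summits and EL 1, 1 and 0 (exact permutation p = 0.4, two-sided, adjusted p = 1), and none was left at equal list length. Without EL replicate 3 the groups did not overlap.

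Phf1, a Polycomb-like subunit with a Tudor domain that binds methylated lysine 36 of histone H3, had a summit within reach in all 6 libraries but none at its own start site. Each of its 10 summits was nearer to another gene. The best percentile within its reach at equal list length was 23.5, 80.0 and 86.5 in PT replicates 1, 2 and 3, against 76.8, 83.0 and 19.3 in EL replicates 1, 2 and 3. The groups overlapped (63.3 ± 34.6 in PT and 59.7 ± 35.1 in EL, SD, n = 3 each; exact permutation p = 0.6, two-sided).

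Full lists held more summits near Phf1 in EL, at 1, 1 and 1 in PT and 2, 3 and 2 in EL replicates 1, 2 and 3. PT averaged 1.0 ± 0 and EL 2.33 ± 0.577 summits (SD, n = 3 each; exact permutation p = 0.1, two-sided, adjusted p = 1). Phf1 and Rbbp7 were the PRC2 genes with more summits in every EL library in full lists, 2 of 10 against 9.26% of all protein-coding genes, and none had more in every PT library, against 0.274%. In the shortened lists the Phf1 numbers were 1, 1 and 1 in PT and 1, 2 and 1 in EL, and the groups overlapped. Counting only summits nearest to Phf1 left it with none.

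Phf19, the third Polycomb-like gene, had no summit within 20 kb in any library, and its promoter window holds the same motif. The window is printed as the counterpart of Jarid2, with the motif (here as its reverse complement) in capitals (RefSeq, GRCm38.p6, chr2:34913927-34914226, minus strand).
Phf19: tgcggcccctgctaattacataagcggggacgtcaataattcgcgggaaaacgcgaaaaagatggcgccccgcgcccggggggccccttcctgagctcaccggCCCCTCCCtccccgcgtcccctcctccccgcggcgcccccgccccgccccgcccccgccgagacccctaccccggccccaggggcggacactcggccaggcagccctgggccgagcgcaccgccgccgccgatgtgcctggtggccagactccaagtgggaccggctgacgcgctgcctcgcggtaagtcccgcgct
The motif occupies bases 104 to 111, and no summit of any library lay within 2 kb of it. The gene is listed as reaching to chr2:34914353, beyond the start site used for the window. The match is therefore upstream of that start site but inside the listed gene. The window had a GC content of 74.3%, against 64.3% for Jarid2.

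**Figure D3:**
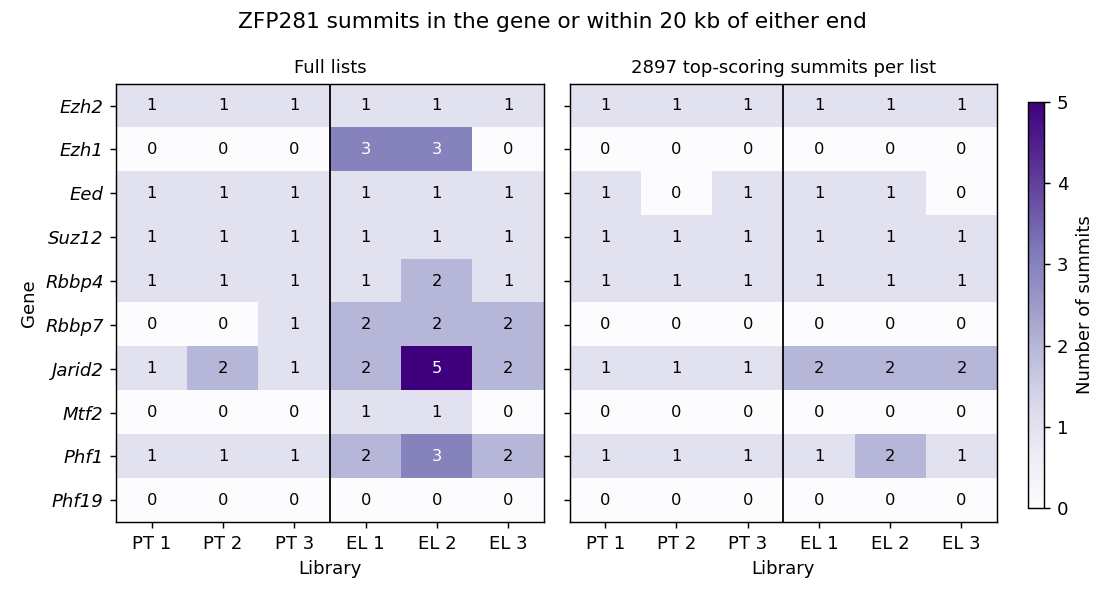
Number of ZFP281 summits in each PRC2 gene or within 20 kb of either end, in full lists on the left and in the 2897 top-scoring summits on the right. Columns are libraries, PT left of the black line and EL right of it, and darker cells hold more summits, as written in each. Rbbp7 and Phf1 have higher numbers in every EL library only in full lists, and Jarid2 only at equal list length.

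**Figure D4:**
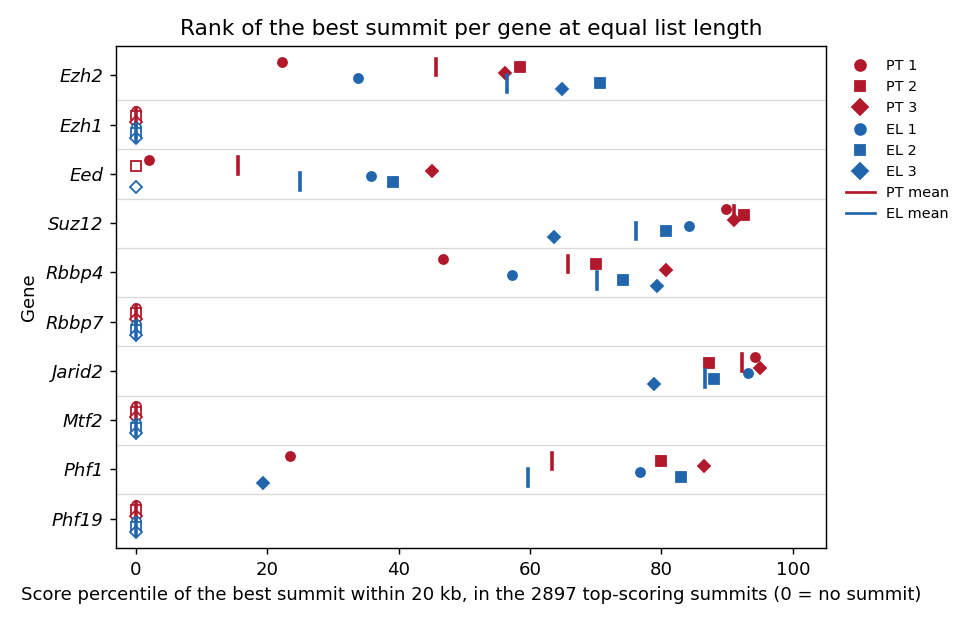
Score percentile of the best summit within reach of each PRC2 gene in the 2897 top-scoring summits of each library, with PT in red above EL in blue. Open symbols at 0 mean no summit, and vertical bars are group means over 3 libraries. Suz12 is the gene whose PT values, 89.8 to 92.6, all lie above its EL values, 63.6 to 84.2.

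**Figure D5:**
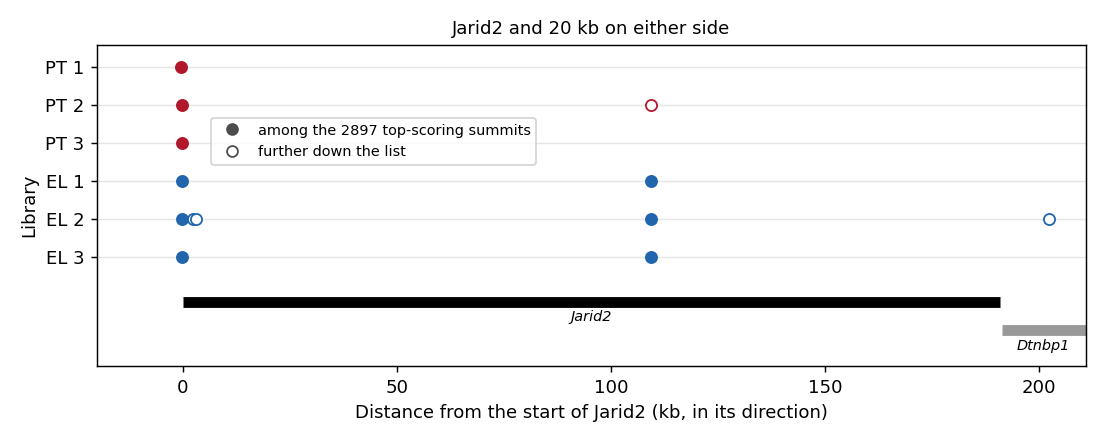
Summits along Jarid2 by library, with distance from the start of the gene in kb on the horizontal axis, PT libraries above EL libraries, and protein-coding genes as bars underneath (Jarid2 in black). Filled points are among the 2897 top-scoring summits of their library and open points are not. The inner Jarid2 region has filled points in the 3 EL libraries and an open one in PT replicate 2, and the promoter region has filled points in all 6 libraries.

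The motif was in the promoter windows of 3 of the 10 genes, Eed, Jarid2 and Phf19, against 15.6% of the 17492 protein-coding genes with a window of 300 bases. The Eed match, at bases 193 to 200 of its window as the reverse complement, lay 435, 479 and 745 bp from the nearest summit in PT replicates 1, 2 and 3 and 700, 474 and 724 bp in EL replicates 1, 2 and 3. Of the 874 genes with a start-site summit in all 6 full lists, 45.9% held the motif, against 10.9% of the 13380 genes with no start-site summit in any. The summits of Ezh2, Suz12 and Eed lay outside the printed kind of window, so their own sequence was not searched. The median GC content was 64.3% over the 12 windows of the PRC2 genes and 56.3% over the 21263 windows of all genes. It was 65.7% over the windows of the genes with a start-site summit in all 6 libraries, and the part of GC content in the motif shares was not tested.

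Summits within 200 bp of each other, from any library, formed 23 regions at the PRC2 genes. Of these, 5 (21.7%) were found in all 6 libraries, at Ezh2, Suz12, Jarid2, Rbbp4 and near Phf1, against 8.14% of the 19317 regions of the whole series. None was found in the 3 PT and no EL library, against 0.704% of all regions. The inner Rbbp7 region was the only 1 in the 3 EL and no PT library, against 1937 of the 19317. Regions of 1 library made up 10 of the 23 (43.5%), against 47.0% of all regions. All 10 were in EL, and regions of 1 EL library only were 40.3% of all. Of the 10, 7 were in EL replicate 2, the longest list, against 6436 of the 19317.

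Other Polycomb genes gave a mixed picture. Of 5 further PRC2 accessory genes, 2 had a summit within reach in all 6 full lists, and of 21 genes of PRC1, the complex that ubiquitinates histone H2A, 6 had one. Of 7 genes for lysine 27 demethylases and for the H2A deubiquitinase PR-DUB, 3 had one. The share over all protein-coding genes was 13.0%. Kdm6b, a lysine 27 demethylase, had percentiles at equal list length of 90.2, 90.5 and 89.7 in PT and 96.3, 89.3 and 92.5 in EL. Asxl1, a cofactor of the deubiquitinase, had 86.1, 93.0 and 91.6 in PT and 92.7, 95.7 and 92.8 in EL. PT and EL overlapped at each. Bap1, the catalytic subunit of that deubiquitinase, had 67.4, 59.9 and 21.8 in PT and 43.8, 74.8 and 60.8 in EL, again with overlap. The X-linked demethylase gene Kdm6a had a summit in 1 PT and 3 EL full lists, and at equal list length only in EL replicate 2, at the 24.1 percentile.

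In PRC1, Bmi1, a RING finger subunit, had percentiles at equal list length of 65.8, 86.9 and 91.9 in PT and 82.7, 82.3 and 75.3 in EL. The chromodomain genes Cbx2 and Cbx8, which are neighbours, had the same best summits, with 86.2, 78.0 and 64.5 in PT and 72.2, 84.3 and 81.2 in EL.

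Lcor, from whose locus the PRC2 cofactor PALI1 is made, had percentiles at equal list length of 83.6, 86.1 and 95.0 in PT and 66.7, 52.0 and 20.6 in EL. Its relative Lcorl had 74.1, 67.1 and 57.6 in PT, against 50.6 in EL replicate 1 and no summit among the 2897 best scores of EL replicates 2 and 3, though all 6 full lists held one. Every PT value of both lay above every EL value, as at Suz12. In the PRC1 list 1 of 21 genes had this order, Kdm2b, and 1 had the opposite one, Yaf2, both named after their values were seen. The shares over all protein-coding genes were 3.25% for PT above EL and 4.61% for EL above PT. Aebp2, a DNA-binding cofactor of PRC2, had a summit in 1 PT and 3 EL full lists, and at equal list length only in EL replicate 3, at the 37.6 percentile.

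The protein-coding genes with the most similar 6 percentiles at equal list length, by Euclidean distance and at least 100 kb away, were Usp22 and Arf5 for Ezh2 (distances of 19.3 and 22.1 percentile points), Mlec and Rb1cc1 for Eed (16.3 and 20.1), and Chrnb2 and Ube2q1 for Suz12. The last 2 had identical values, at a distance of 10.5, with 89.7, 93.1 and 93.0 in PT and 81.2, 88.9 and 69.1 in EL. These are likenesses over 6 libraries and carry no test.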

How the data were processed

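ZFP281 immunoprecipitates were sequenced in 3 PT and 3 EL libraries (paired reads, 150 bp, per the labels' protocols, which also name an RNA kit). The submitters' processing notes name mm10, Bowtie2 2.3.4.3 and Picard. Which program called the summits, and whether it used the inputs, is not given in the sources used here. Per library, the authors deposited summits with a score whose scale no label names, and it was taken as −log10 q because no list goes below 1.30, the −log10 of 0.05. The score only ranked summits within a list. The inputs were not analysed here.

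Summits of the 19 autosomes, X and Y were kept, at 1-based positions. Other sequences held 0, 0 and 2 in PT and 1, 3 and 4 in EL. No pair of lists shared more than 81 positions. Gene ends, start sites and promoter windows came from RefSeq (GRCm38.p6, the mm10 build), with all 10 members matched and no exons. Each protein-coding gene's summit number and best percentile (0 with no summit) went through an exact permutation test, two-sided, with 20 relabellings, a smallest p of 0.1 and Benjamini-Hochberg adjustment over 21887 genes. No gene could pass 0.05, so the call used was that PT and EL do not overlap, beside the share of all genes with it. All members were named, and up to 4 genes per other list, those with the highest minimum percentile over the 6 libraries. Some results that this rule or the reach of a member would give are not reported here. The members, lists and rules were chosen with earlier results of these data known, and the 1 kb start-site window and the nearest-gene limit after seeing these values. Counting and calls were tested on simulated lists with summits planted in fixed numbers (Python 3.11.15, numpy 2.4.6, pandas 2.3.3, scipy 1.17.1). Such lists check the code and cannot show how the call behaves in noisy lists of unequal length.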

Additional observations from a re-analysis of the deposited data

How the results depend on the processing

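The number of PRC2 genes with more summits in every EL library was 2 in full lists. It was 1 with a score of at least 5, in gene bodies and for summits nearest to the PRC2 gene (Rbbp7 each time), and 1 with a score of at least 10 and at equal list length, where Phf1 and Rbbp7 were lost and Jarid2 was gained. With a reach of 50 kb it was 3, with Phf19 added. It ran from 2 to 4 with 1 library left out, the highest without EL replicate 3, when Ezh1 and Mtf2 were added. At equal list length the number was 1, and 0 with 2000 or 1000 summits per list. For the best percentile, the number of genes with every PT above every EL library was 1 at equal list length and 0 in full lists, and 1 to 2 with a library left out. The opposite order held for 0 genes at equal list length, for 1 in full lists and for 0 to 1 with a library left out. In full lists the PT minus EL difference in best percentile was -28.8 for Ezh2, -43.2 for Eed, -18.8 for Rbbp4 and -17.7 for Phf1. It was 1.33 for Suz12 and -1.33 for Jarid2, and the groups overlapped at each of these genes. At equal list length the differences were -10.8, -9.32, -4.44, 3.66, 15.0 and 5.55 in the same order. The PT minus EL difference in genes with a summit, -2.0 in full lists, was 0 at equal list length, -3.0 with a reach of 5 kb and -1.0 within 1 kb of a start site, and ran from -2.67 to -1.67 with a library left out. Regions found in all 6 libraries numbered 5, with 2 at a merging distance of 50 bp and 6 at 500 bp. The cause was not tested, except that stricter lists hold fewer summits by construction. No PRC2 gene with groups that did not overlap changed direction under the alternatives run.

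Same-numbered PT and EL libraries were not paired by the labels, and their deviations from the group means in best full-list percentile correlated at -0.0587, -0.0187 and -0.0029 over genes with a summit. With the replicate block, a gene counted when all 3 numbered pairs went the same way. It gave 3 genes with more EL summits in full lists (Jarid2 added), 1 at equal list length, and for the best percentile 1 gene higher in PT and 1 (Ezh2) higher in EL. A block of 3 pairs cannot go below p = 0.25 in an exact test. Unknown read depth limits every full-list comparison, since a weak summit can be missing from a short list for want of reads.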
